A study of Mus musculus with 20 samples.

Results

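Antibody molecules are built from 2 identical heavy and 2 identical light chains, and the probes described here read the RNA of these chains in the diaphragm of mice whose pleural cavity had received fibers. The probes were chosen from the scanner files by name: noncontrol probes whose gene name starts with Igh, Igk or Igl, Ighmbp2 left out, or whose description names an immunoglobulin heavy, kappa or lambda gene. The rule found 150 of 55681 noncontrol probes, on 159 spots. Of these, 144 read a chain: 45 heavy (4 constant, 35 variable and 6 other), 94 kappa (2 constant, 91 variable and 1 other) and 5 lambda (3 constant and 2 variable). The remaining 6 were caught by words of the rule and code no chain: Rbpj and Rbpjl with 2 probes each, the surrogate light chain gene Igll1, and Iglon5.

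All 20 mice were female C57Bl/6, were injected once at an age of 8 weeks, and gave part of the diaphragm 12 weeks later, with 4 mice and 4 arrays per group. The vehicle group (VC) received 0.5% BSA in saline in a volume of 100 μL, which the fiber groups received too. SFA and LFA mice received 25 μg of short or long amosite asbestos, and SNT and LNT mice received 5 μg of short or long carbon nanotubes, called NTS and NTL in the sample labels. The doses of asbestos and nanotubes differed, so fiber type and dose cannot be told apart between them. The injection placed the fibers directly in the pleural space, and the RNA came from the whole tissue, in which more cells of a type and more RNA per cell cannot be told apart.

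A heavy chain gene is assembled in a B cell from 1 variable, 1 diversity and 1 joining segment, and a light chain from 1 variable and 1 joining segment, so each clone carries its own pair of variable regions. The heavy constant gene sets the class: mu for IgM, made first, and gamma, alpha or epsilon after class switching. Light chains are kappa or lambda, with kappa used by most mouse B cells. B cells carry membrane-anchored antibody, and plasma cells, into which they mature, secrete it from very large amounts of chain RNA. The C57BL/6 strain carries the gamma gene Ighg2c in the place where other strains carry IgG2a, which is why IgG2a appears in older probe names.

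The level of a probe is its log2 signal minus the log2 of the 75th percentile of its array, so 0 is the level of a fairly bright probe and 1 unit is a 2-fold step. Probes that the scanner software marked as well above background on 4 or more arrays were tested, and a probe was called when its limma model gave a change of at least 1 unit with an adjusted p under 0.05 over all 36920 tested probes. Of the 144 chain probes 139 passed this filter, 72 were well above background on all 20 arrays and 3 on none.

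The probes on which the results turn are shown with their positions on build NCBI37 (mm9), as the scanner files give the sequence, 5′ to 3′. The first set gives the constant region probes, so that it can be seen which part of which class each one reads. In the class counts Ighg, AK007918, BC019489 and XM_003085465 stand under other, by their names. Capitals mark a final stop codon that no other stop precedes in its frame.
Ighm, chr12:114659630-114659689, minus strand: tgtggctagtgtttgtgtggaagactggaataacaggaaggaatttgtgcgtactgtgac
Ighg1 probe 2, chr12:114568594-114568653, minus strand: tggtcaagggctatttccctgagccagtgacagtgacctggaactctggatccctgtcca
Ighg, chr12:114544738-114544797, minus strand: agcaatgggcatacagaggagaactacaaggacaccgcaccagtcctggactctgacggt
AK007918, chr12:114525600-114525659, minus strand: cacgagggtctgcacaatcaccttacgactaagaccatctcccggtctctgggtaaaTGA
BC019489, chr12:114525496-114525555, minus strand: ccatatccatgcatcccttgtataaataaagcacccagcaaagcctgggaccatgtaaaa
Ighg2c, chr12:114523536-114523595, minus strand: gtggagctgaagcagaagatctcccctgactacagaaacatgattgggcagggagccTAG
XM_003085465, chr12:114496985-114497044, minus strand: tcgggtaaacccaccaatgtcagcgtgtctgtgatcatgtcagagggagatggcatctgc
Igkc probe 1, chr6:70676692-70676751, plus strand: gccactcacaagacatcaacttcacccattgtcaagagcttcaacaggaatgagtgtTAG
Iglc3 probe 1, chr16:19065462-19065521, minus strand: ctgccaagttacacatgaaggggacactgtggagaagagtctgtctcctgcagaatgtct

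Going down the chromosome from Ighm, the heavy chain probes lay in the order Ighm, Ighg1, Ighg, the pair AK007918 and BC019489, Ighg2c, and last XM_003085465. The files describe Ighg as the gamma polypeptide, AK007918 and BC019489 as serum IgG2a, and XM_003085465 as a member of the Igh-VJ558 variable family, although it lies beyond the gamma genes on the side away from the variable region. In the gene order of RefSeq (assembly GRCm38.p6), Ighe and then Igha follow Ighg2c on that side. The file's names were kept. AK007918 and Ighg2c each end in a stop codon, and the Ighg2c probe starts 2064 bases farther along the gene. From general knowledge of gamma chains, the letters of the Ighg2c probe resemble the end of the membrane-anchored form and those of AK007918 the end of the secreted form; neither was checked here against a reference sequence. No probe named for the alpha, delta, epsilon, gamma 2b or gamma 3 constant genes was analysed here.

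The second set gives variable region probes, which were placed in the segment and read whichever clones use it.
Ighv14-3, chr12:115298056-115298115, minus strand: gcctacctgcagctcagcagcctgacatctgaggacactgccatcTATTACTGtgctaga
Igkv14-126, chr6:67846563-67846622, plus strand: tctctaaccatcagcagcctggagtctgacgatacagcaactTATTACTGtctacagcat
Igkv8-16, chr6:70336871-70336930, minus strand: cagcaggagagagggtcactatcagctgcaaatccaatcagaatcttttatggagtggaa
Igkv15-103 probe 1, chr6:68387858-68387917, plus strand: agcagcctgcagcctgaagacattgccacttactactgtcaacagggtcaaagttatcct
Iglv1, chr16:19085111-19085170, minus strand: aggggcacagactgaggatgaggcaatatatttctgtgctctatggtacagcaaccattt
Igkv4-73, chr6:69147579-69147636, minus strand: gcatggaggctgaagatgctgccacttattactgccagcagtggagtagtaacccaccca
Igkv4-78, chr6:69009686-69009743, minus strand: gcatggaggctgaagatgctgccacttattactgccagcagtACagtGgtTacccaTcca
In Ighv14-3 and Igkv14-126 the capitals mark TATTACTG, letters that lie at the conserved cysteine near the 3′ end of many variable segments. The motif TATTACTG was found on the printed strand of 28 of 91 kappa and 3 of 35 heavy variable probes, and in 0.198% of all 55681 noncontrol probes; its reverse complement was found in 1 variable probe. In Igkv4-78 the capitals mark the 5 of 60 bases that differ from Igkv4-73. Such near-identity touched 19 of the 128 variable probes, each with a partner of at least 90% identity over at least 50 aligned bases, so the variable probes are not independent readouts of single segments. No constant region probe had such a partner among the chain probes. Probes were compared only with each other, so whether a constant probe also reads a related gene was not tested.

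Before the results, some arrays stood apart. The 75th percentile of signal ran from 294 to 996 over the 20 arrays, with group medians from 455 (SNT) to 816 (LNT). The liver gene albumin ranged from -1.94 to 10.1, and 5 arrays were above 8, namely SFA replicate 2, LFA replicates 1 and 3, and SNT replicates 3 and 4. The liver list had no called gene in LFA or LNT, and its part in the results was not tested beyond leaving those 5 arrays out. The labeled tissue was borne out by its muscle genes, whose summed level lay between 11.1 and 12.8 on all arrays. Of 12 muscle genes 2 were called lower in LFA and 4 in LNT against VC, beside 1.72% and 3.18% of all tested probes.

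By median level, chain RNA was higher in the diaphragms of LFA and LNT mice than in those of VC, SFA and SNT mice. This held for each of the 3 chains and for constant and variable probes. The family was chosen with this known, so these levels are a description. The classes were not equally far apart. The 3 lambda constant probes had a median difference of 1.89 between LFA and SFA, and none of them was called there. The median level over all 144 probes was -2.80, -2.74, -1.52 and -1.45 in the VC mice, with a mean of -2.13 ± 0.74 (SD, n = 4). It was -2.05, -3.12, -2.48 and -1.56 in SFA (mean -2.30 ± 0.66) and -1.59, -3.45, -1.70 and -3.32 in SNT (mean -2.52 ± 1.01). The long-fiber mice stood at 1.01, 1.83, 0.45 and 1.39 in LFA (mean 1.17 ± 0.58) and at 1.95, 1.74, 2.20 and 1.63 in LNT (mean 1.88 ± 0.25). No VC, SFA or SNT mouse reached the lowest long-fiber mouse, LFA replicate 3, and the LNT mice were the most alike. The median change from VC over the 144 probes was 3.0 in LFA and 3.70 in LNT, beside -0.37 in both for all 55681 noncontrol probes.

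Against VC, 85 of the 139 tested chain probes had a call of higher in LFA, beside 2.22% of all tested probes, and 109 in LNT, beside 3.63%. None was called lower, beside 1.72% of all tested probes in LFA and 3.18% in LNT. All 85 of the LFA calls were also called in LNT, where both contrasts used the same VC arrays. The family was chosen with these contrasts known, so nothing is read from the shares or from this overlap. On the 72 chain probes well above background on every array, the calls were 58 and 62. For 69 of the 144 probes every LFA and LNT array lay above every VC, SFA and SNT array, as did 1.43% of all tested probes. The LFA count rested on single arrays: it was 40 without LFA replicate 2, 42 without LFA replicate 4 and 50 without VC replicate 1. In LNT the count stayed between 94 and 109 whichever array was left out. Leaving out the 5 arrays with albumin above 8 gave 76 and 112, where 4.61% and 9.63% of all tested probes were called in either direction.

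The mu chain of IgM was measured by 1 probe, Ighm. Its levels were 3.87, 3.12, 5.02 and 4.23 in VC, 4.26, 2.94, 3.77 and 5.00 in SFA, and 4.63, 2.71, 4.05 and 1.80 in SNT. In LFA they were 7.36, 7.84, 5.95 and 7.29, and in LNT 8.11, 7.60, 7.77 and 7.82. All 8 long-fiber mice lay above all 12 others, and the LNT mice lay within 0.51 of each other. The change from VC was 3.05 ± 0.58 (SE) in LFA and 3.76 ± 0.58 in LNT.

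The gamma chains of IgG were uneven between VC mice. Ighg stood at 0.46, 3.62, 2.01 and 4.45 in VC, 2.13, 2.48, 2.02 and 2.19 in SFA, and 4.20, -1.52, 1.89 and 2.30 in SNT. It stood at 6.73, 7.85, 7.28 and 6.62 in LFA and at 5.76, 6.90, 7.69 and 6.89 in LNT, so the long-fiber mice again lay above all others. The change was 4.49 ± 0.91 in LFA and 4.18 ± 0.91 in LNT. BC019489, named for serum IgG2a, changed by 3.92 ± 0.97 in LFA and 3.71 ± 0.97 in LNT. Its VC mice spread from 1.45 to 5.38, and its long-fiber mice from 6.25 to 8.12. AK007918, which lies next to it, had changes of 2.83 ± 0.97 and 2.54 ± 0.97 that were not called. Ighg1 probe 2, for the gamma 1 chain of IgG1, went from -3.37, -2.46, -1.31 and 2.19 in VC to 2.99, 3.90, 1.79 and 1.60 in LFA and 1.95, 1.49, 3.87 and 2.64 in LNT. VC replicate 4 was as high as the long-fiber mice, and the groups overlapped. Ighg1 probe 1 was well above background on only 15 arrays, and its changes of 3.81 ± 1.85 in LFA and 2.96 ± 1.85 in LNT were not called. These 4 gamma probes other than Ighg1 probe 2, and XM_003085465, fall outside the rule for named probes and were singled out after their values were seen.

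The Ighg2c probe did not move with the other gamma probes. These include BC019489 and AK007918, which lie close to it and are named for serum IgG2a. Whether they read the same gene was not tested, so the Ighg2c probe alone does not show that IgG2c RNA stayed level. The Ighg2c probe was well above background on 4 arrays, 2 in VC and 1 each in SNT and LNT. Its group means lay between -6.40 (LFA) and -4.91 (SNT). Its change of -1.15 ± 0.51 in LFA compares a dim signal with one not well above background on any of the 4 arrays, and was not called.

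XM_003085465, the probe beyond the gamma genes, was high in the same mice as Ighm. It stood at 2.56, 3.98, 4.97 and 3.24 in VC, 4.56, 3.72, 4.32 and 6.41 in SFA, and 3.24, 1.61, 4.18 and 3.28 in SNT. It stood at 7.16, 8.23, 7.28 and 7.27 in LFA and at 8.40, 9.05, 8.29 and 7.12 in LNT. SFA replicate 4 came within 0.71 of the lowest long-fiber mouse. The change was 3.80 ± 0.63 in LFA and 4.53 ± 0.63 in LNT.

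Of the light chains, kappa RNA was already bright at its constant region in VC. Igkc probe 1 stood at 6.15, 6.98, 6.96 and 6.68 in VC, 8.29, 8.65, 8.60 and 8.86 in LFA, and 8.79, 8.98, 8.62 and 8.38 in LNT, with the SFA and SNT mice between 4.89 and 7.24. The groups did not overlap, and the change was 1.90 ± 0.42 in LFA and 2.0 ± 0.42 in LNT. This was the brightest chain probe, with a raw signal of up to 391744 where the brightest spot of an array lay between 410625 and 611564. No spot was marked as saturated, and the part of this closeness in the size of the change was not tested. Igkc probe 2, which reads an unclassified bone transcript near Igkc, was dim and had differences of -0.29 ± 0.69 and -0.42 ± 0.69.

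Lambda constant RNA rose at all 3 of its probes. Iglc3 probe 1 stood at 4.12, 5.13, 5.28 and 4.05 in VC, 6.92, 6.12, 7.99 and 7.5 in LFA, and 6.77, 8.73, 8.16 and 6.70 in LNT. SFA replicate 1, at 6.97, lay among them, while the other SFA mice lay between 4.45 and 4.80. The change was 2.49 ± 0.61 in LFA and 2.94 ± 0.61 in LNT, and Iglc2 changed by 2.48 ± 0.58 and 3.15 ± 0.58. The lambda variable segment Iglv1 was tighter. It lay between 1.94 and 2.51 in VC, between 6.21 and 6.48 in LFA and between 6.46 and 7.85 in LNT. That is a change of 4.18 ± 0.49 in LFA and 4.76 ± 0.49 in LNT. Iglv3 split the LNT mice, at 0.46, 4.72, 5.08 and 1.49, with a group change of 5.01 ± 0.89.

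Whether the classes moved unequally was tested on the difference between 2 probes of the same array. The family was chosen with the rise of single probes known, though not by these differences. There were 18 such comparisons, 6 probe pairs in LFA, in LNT and in both together against VC, each by a two-sided exact permutation test with Benjamini-Hochberg adjustment. With 4 mice against 4 the smallest possible p was 0.0286. Ighg2c against Ighm reached this p in LFA and in LNT and had an adjusted p of 0.171 in each. A comparison of 1 group that did not pass is therefore not read as equal movement. Against Ighm, Ighg shifted by 1.44 in LFA (exact p = 0.343, adjusted p = 0.561) and by 0.41 in LNT (exact p = 0.80, adjusted p = 0.90). Ighg1 shifted by 0.76 in LFA (exact p = 0.60, adjusted p = 0.831) and by -0.04 in LNT (exact p = 1, adjusted p = 1). XM_003085465 shifted by 0.76 over both groups together (exact p = 0.168, adjusted p = 0.503). BC019489, named for serum IgG2a, shifted by 0.40 over both groups (exact p = 0.671, adjusted p = 0.839). Within VC the difference of Ighg and Ighm had an SD of 2.07, and that of Ighg1 and Ighm 2.28, wider than every shift of a detected gamma probe.

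The kappa minus lambda difference was 2.05 ± 0.41 (SD, n = 4) in VC, 1.47 ± 0.80 in LFA and 1.10 ± 0.88 in LNT. It shifted toward lambda by -0.76 over both groups together (exact p = 0.121, adjusted p = 0.436), which did not pass. The single shift that passed was that of Ighg2c against Ighm over both groups, -4.17 (exact p = 0.00202, adjusted p = 0.0364). It sets a rising probe against one near background, so it follows largely from the Ighm rise known when the family was chosen. It is therefore no separate test of a class. Leaving out each mouse the shift ran from -4.82 to -3.80, and it was -4.23 with slide as a block. There the smallest p that the arrangements allow is too large to pass among 18 comparisons, so those repeats say nothing about the call.

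Variable region probes of all 3 chains were raised as well. Over all 128 variable probes the median change was 3.02 in LFA and 3.71 in LNT, with ranges of -0.97 to 5.75 and -0.77 to 6.97. Over the 9 probes classed as constant by name it was 2.49 and 2.96, with ranges of -1.15 to 3.81 and -0.42 to 3.76. These include Ighg2c, near background, and the dim Igkc probe 2. They leave out Ighg, AK007918, BC019489 and XM_003085465, which were classed as other. Over the 6 heavy probes classed as other the median change was 3.86 in LFA and 3.94 in LNT. Of 34 tested heavy variable probes 15 were called higher in LFA and 26 in LNT; of 87 tested kappa variable probes 57 and 70 were; both lambda variable probes were called in both groups. Of all tested probes 2.22% were called higher in LFA and 3.63% in LNT. Classes of probes differ in number and brightness, and no test was made between them.

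The brightest heavy variable probes were Ighv14-3, Ighv1-7, Ighv1-85, Ighv1-67 and Ighv1-20. Ighv14-3 went from 0.52, -1.17, 1.27 and 1.86 in VC to 4.08, 4.26, 2.0 and 3.24 in LFA and 4.91, 3.30, 4.61 and 4.35 in LNT, with every long-fiber mouse above every VC mouse. The 5 changed by 2.77 to 3.06 in LFA and by 3.49 to 3.96 in LNT. The brightest kappa variable probes were Igkv4-71, Igkv4-73, Igkv4-78, Igkv14-111 and Igkv14-126. The 3 of the Igkv4 family, of which the sequences of Igkv4-73 and Igkv4-78 are printed, changed by 2.52 to 2.56 in LFA and 3.32 to 3.35 in LNT. Igkv14-126 stood at 0.05, -0.10, 2.63 and 1.52 in VC, 2.41, 4.67, 2.86 and 4.27 in LFA, and 5.32, 5.87, 5.34 and 5.15 in LNT. Its LNT mice were alike, and all lay above its LFA mice.

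The largest change of a chain probe measured on all arrays was that of Igkv8-16, singled out for it after the values were seen. It stood at -3.31, -1.85, -3.28 and -2.05 in VC, 1.92, 2.74, 3.82 and 4.02 in LFA, and 4.55, 5.57, 4.18 and 3.08 in LNT. That is 5.75 ± 0.62 in LFA and 6.97 ± 0.62 in LNT. For 9 tested probes no VC array was well above background, and a change is then a bound. It was largest for Igkv14-130, at least 57.2-fold higher in LNT and at least 19.2-fold in LFA, and for Igkv9-123, at least 54.4-fold in LNT and at least 10.8-fold in LFA. The bound takes, on each VC array, the higher of the probe's own signal and the dimmest signal well above background.

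Some probes did not follow, and those named were picked after their values were seen. Of the 144, 9 had a change of 0 or below in LFA and 9 in LNT. Igkv4-72, well above background on every array, had differences of -0.12 in LFA and 0.86 in LNT and was not called. Ighv12-3 had -0.97 and -0.13, and Igh-V3660 -0.30 and -0.27, likewise not called. Igkv5-37 did not pass the filter because 3 arrays alone held it: it stood at -1.68, 0.07 and 0.04 in LNT replicates 1, 2 and 3, at -6.55 in LNT replicate 4, and between -7.56 and -4.77 on the other 16 arrays.

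Single mice also stood out at single probes, mostly of variable segments, in VC, SFA and SNT. A probe was counted where 1 mouse lay at least 3 units, or 8-fold, above the 3 others of its group, a rule set after the values were seen. This held for 6 of the 139 tested chain probes in VC (4.32%, beside 0.867% of all tested probes), 4 in SFA (2.88%, beside 0.829%), 8 in SNT (5.76%, beside 0.436%), 1 in LFA (0.719%, beside 0.401%) and none in LNT (beside 0.349%). In SFA replicate 4 both probes of Igkv15-103 stood out, at 4.80 and 4.60 against at most -0.19 in the other SFA mice. That is above the level of the same probes in every LNT mouse. In VC replicate 4 the 2 probes of Igkv3-10 stood at 1.37 and 1.57 against at most -2.09 in the other VC mice, and Igkv3-9 stood 4.06 units above the next. SNT replicate 1 held 6 of the 8 in its group, with Igkv3-2 at 1.58 against at most -3.43.

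Chain probes spread more between mice of a group than most probes did, a description with no test. Over the 72 chain probes well above background on every array, the median SD of 4 mice was 0.78 in VC, 0.87 in SFA, 1.22 in SNT, 0.82 in LFA and 0.70 in LNT. Over all probes measured that well it was 0.49, 0.42, 0.51, 0.42 and 0.37 in the same order. SNT replicate 2 and SNT replicate 4 had the lowest medians over the 144 probes, at -3.45 and -3.32.

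Short fibers were compared with VC to ask whether fiber material without length changed chain RNA. No chain probe was called in SFA or SNT, where 0% of all tested probes were called, and the smallest adjusted p was 0.999 in SFA and 1.0 in SNT (limma). At an unadjusted p under 0.05 there were 7 chain probes in SFA and 9 in SNT, beside 2.28% and 3.49% of all tested probes. The median change over the 144 probes was -0.14 in SFA and -0.65 in SNT, beside -0.07 and 0.04 for all noncontrol probes. Of the 144, 57 and 30 lay above 0, a description, since probes of the same mice are no replicates. Ighm had a difference of -0.07 ± 0.58 in SFA and -0.77 ± 0.58 in SNT, and Igkc probe 1 of -0.07 ± 0.42 and -0.68 ± 0.42.

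Fiber length within a material was compared directly. The family was chosen with the rise in the long-fiber groups known, so the counts of calls are a description here too. Of the 139 tested chain probes 78 were called higher in LFA than in SFA, where 1.03% of all tested probes were, and 122 in LNT than in SNT, where 4.89% were; none was called lower, beside 0.133% and 2.71%. Without LFA replicate 2 the asbestos count was 32, without LFA replicate 4 it was 38, without SFA replicate 2 it was 35, without SFA replicate 3 it was 45, and without the arrays high in albumin it was 50, with 1.28% of all tested probes then called in either direction. With only probes well above background on every array tested, the counts were 58 for asbestos and 69 for nanotubes. Ighm differed by 3.12 ± 0.58 between LFA and SFA and by 4.53 ± 0.58 between LNT and SNT. Whether the 2 length effects differed was tested as their difference. No chain probe was called, at a smallest adjusted p of 1.0 (limma), and 15 had an unadjusted p under 0.05, beside 3.45% of all tested probes. The difference lay above 0, a larger length effect in nanotubes, for 125 of the 144 chain probes, which are no replicates. Its median was 1.14, beside -0.09 for all noncontrol probes.

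LNT and LFA were not told apart at any chain probe. None was called and 0% of all tested probes were, and 10 chain probes had an unadjusted p under 0.05, beside 1.55% of all. The difference LNT minus LFA lay above 0 for 125 of the 144 probes, which come from the same mice and are no replicates. Its median was 0.72, beside 0.01 for all noncontrol probes. It was 0.71 ± 0.58 for Ighm and 0.09 ± 0.42 for Igkc probe 1. Igkv14-126 had 1.87 ± 0.62 (unadjusted p = 0.00766, adjusted p = 1.0, limma). For the gamma probes Ighg, BC019489 and Ighg1 probe 2 it was -0.31 ± 0.91, -0.21 ± 0.97 and -0.09 ± 0.94. Whether gamma and mu probes differed in this respect was not tested.

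Genes that mark antibody-secreting cells and genes of B cells as a whole were read beside the chains. Of 14 plasma cell genes, all tested, 7 were called higher in LFA and 10 in LNT, with median changes of 1.57 and 1.80. Beside these and the B cell counts stand 2.22% and 3.63% of all tested probes called higher. Their summed level, as the log2 of the sum, was 6.02 to 6.63 in VC, 5.94 to 6.91 in SFA, 5.75 to 6.70 in SNT, 7.89 to 8.41 in LFA and 8.20 to 8.93 in LNT. Igj, the joining chain of polymeric IgM and IgA, changed by 3.02 ± 0.44 in LFA and 3.34 ± 0.44 in LNT, and 2010001M09Rik, also called Mzb1, an endoplasmic reticulum chaperone of antibody assembly, by 2.45 ± 0.44 and 2.83 ± 0.44. Creld2, an endoplasmic reticulum stress gene, changed by 1.37 ± 0.28 and 1.54 ± 0.28. Xbp1, the transcription factor of the secretory program, had 0.86 ± 0.25 and 0.85 ± 0.25 and was not called, nor were Sdc1, Txndc5 and Fkbp11 in either group. Of 16 B cell genes none was called in LFA and 1, Vpreb3, in LNT, with median changes of 0.31 and 0.34. The summed level of this list was 4.43 to 5.88 in VC, 4.77 to 5.84 in LFA and 4.94 to 5.92 in LNT, so the groups overlapped. Cd79b and Cd79a, which carry the signal of the B cell receptor, had differences of 0.27 ± 0.44 and 0.47 ± 0.51 in LFA, and of 0.36 ± 0.44 and 0.99 ± 0.51 in LNT, none of them called. Ms4a1, which codes CD20, had 0.51 ± 0.56 and 0.15 ± 0.56. The difference between the lists was not tested.

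Of 14 genes of class switching and the germinal center, 11 were tested, and 1 was called higher in LFA (Il4) and 1 in LNT (Cd40). Beside this and the list counts that follow stand 2.22% and 3.63% of all tested probes. Of 6 genes of early B cell recombination 3 were tested and none was called in either group. Of 9 tested receptors and transporters of immunoglobulin 3 were called higher in LFA and 5 in LNT. These bind the constant part of antibodies and lie mostly on myeloid cells. Pigr, which carries polymeric antibody across epithelium, had 0.17 ± 0.45 and -0.82 ± 0.45 and was not called. Fcer1g, the signaling chain shared by Fc receptors, had 1.38 ± 0.45 in LFA, not called, and 2.07 ± 0.45 in LNT, called. Fcgrt, which spares IgG from breakdown, had 0.22 ± 0.35 and 0.42 ± 0.35, and the inhibitory receptor Fcgr2b 2.98 ± 0.54 and 3.22 ± 0.54. Of 10 T cell genes none was called in LFA and 1 in LNT, and of 9 macrophage genes 6 and 7 were called higher. No gene of these lists was called in SFA or SNT against VC. The summed level of the macrophage list was 6.33 to 6.86 in VC, 7.13 to 8.02 in LFA and 7.82 to 8.14 in LNT, and its part in the chain results was not tested.

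The 3 slides held mixed groups, so changes were also read within slides, of which slides 1 and 3 held 1 VC mouse each. Slide 1 held no SFA or LNT mouse, and slide 3 held no SNT mouse. LNT and SNT thus shared slide 2 alone, so fiber length and slide cannot be fully told apart between them. Ighm was higher than VC by 2.39, 3.86 and 2.82 in the LFA mice of slides 1, 2 and 3, and by 4.61 and 2.71 in the LNT mice of slides 2 and 3. Igkc probe 1 was higher by 2.05, 1.72 and 1.69 in LFA and by 2.22 and 1.70 in LNT. Ighg was higher by 2.50, 4.69 and 5.84 in LFA and by 3.72 and 5.15 in LNT. Other gamma probes were not raised alike: Ighg1 probe 2 differed by -0.50, 5.90 and 5.21 in LFA and by 4.86 and 3.98 in LNT, and AK007918 by 0.44, 2.86 and 4.99 in LFA. The VC mouse of slide 1 was replicate 4, the one high in Ighg1 probe 2. With slide as a block, LFA had 72 called chain probes against VC and LNT had 94. Against the short fibers of the same material the block gave 74 in LFA and 84 in LNT, beside 78 and 122 without it. Slide 3 was scanned on another day than the other 2, so slide and scan day cannot be told apart.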

How the data were processed

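RNA of the diaphragm was labeled with 1 dye by the authors and hybridized to 60K mouse arrays, 1 per mouse. The deposited intensity per spot came from Agilent Feature Extraction 10.7.3.1, with background subtracted. A second deposited table holds log2 values that the authors normalized in GeneSpring, with 1 value per group, whose group differences matched those computed here (r = 1, slope = 1 over 36920 probes) and whose column medians lay between -0.11 and 0.12; how its levels were centered is not given in the sources used here. The table also holds no columns of single mice, so it gave no tests.

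Here, the 92 to 204 outlier spots of each array were dropped, the log2 75th percentile of each array over noncontrol spots was subtracted, and spots of a probe were averaged. Probes well above background on at least 4 arrays were tested with limma 3.58.1 in R 4.3.3, 1 model with 5 group means. Calls needed a 2-fold change with an adjusted p (Benjamini-Hochberg) below 0.05. The number of arrays limits the precision; nothing in the labels ties mice to litters or cages. The script was tested on simulated data. Named probes were the brightest tested probe of each constant gene and the 5 brightest variable probes of each chain. Of fixed gene lists at most the 4 brightest genes were named by rule. Vpreb3, Il4, Cd40, Sdc1, Txndc5 and Fkbp11 were added after their values were seen. Members, lists and rules were chosen with earlier results of these data known. Alternatives were quantile normalization, normexp correction (offset 50), the authors' table, no filter, all-array filter, slide block, replicate block, fewer groups, leaving out each array, and the study's unequal-variance test; leaving out arrays rich in albumin and 3 of the 6 probe pairs were added after the data were seen. Equal replicate numbers did not pair the mice: deviations at equal numbers correlated between -0.68 and 0.69, with 14 of 40 pairs above 0.1. No 2 arrays were copies (correlation 0.865 to 0.986).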

Additional observations from a re-analysis of the deposited data

Results flagged for a closer look

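In 145 sets of 4 arrays, for 23 probes and 6 within-array differences over the 5 groups, 8 sets (5.52%) had 1 mouse farther from the other 3 than Dixon's criterion allows at 0.829; chance flags about 1 set in 20. Iglc3 probe 1 was 6.97 in SFA replicate 1, against 4.45 to 4.80 in the other SFA mice. Ighv1-20 was -2.76 in VC replicate 2, against -0.24 to -0.05. Igkv4-73 was 1.08 in VC replicate 4, against 2.10 to 2.18. XM_003085465 was 8.23 in LFA replicate 2, against 7.16 to 7.28. Ighg2c, near background, was -6.64 in LNT replicate 1, against -5.39 to -5.17. Ighg1 minus Ighm was -7.98 in SFA replicate 1, against -6.58 to -6.41. Ighg2c minus Ighm was -10.0 in SNT replicate 1, against -7.69 to -7.52, and -14.8 in LNT replicate 1, against -13.2 to -12.9.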

How the results depend on the processing

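Chain probes called numbered 85 in LFA and 109 in LNT against VC. Over quantile normalization, normexp correction, no filter, the slide block and the fit of only the groups compared, these counts ran from 58 to 97 and from 94 to 110. With the replicate number as a block they were 82 and 109, and the block changed no count by over 1.5 times. Restricted to probes well above background on all arrays, the LNT counts were 64 against VC and 69 against SNT, because fewer probes were tested. The study's test called 120 higher in each of LFA and LNT (3.25% and 3.67% of all tested probes), 23 in SFA, of which 17 lower, and 27 in SNT, of which 26 lower (0.488% and 0.525% of all in either direction); it asks whether any of 5 groups differs, so it is no test of the short fibers alone. Leaving out the 5 arrays rich in albumin gave 50 for LFA against SFA. Leaving out each array gave 40 to 83 (LFA against VC), 94 to 109 (LNT against VC), and 32 to 79 (LFA against SFA), and moved LNT against SNT by under 1.5 times; the count stayed at 0 in SFA and SNT against VC, in LNT against LFA and for the difference of length effects.

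Of the named probes other than Ighg2c, the change from VC stayed above 0 in 289 of 289 repeats each for LFA (1.72 to 4.95) and LNT (1.82 to 5.84). With Ighg2c included, the call was lost in 92 repeats for LFA (against 213 with no loss), most often without LFA replicate 4, VC replicate 1 or LFA replicate 2, and in 6 for LNT (against 299), all of Ighg1 probe 2.

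Of the shifts against Ighm, Ighg1 in LNT turned to 0.79 under the slide block, BC019489 in LNT to 0.028 under quantile normalization and 0.48 under the slide block, and Ighg1 in both groups to -0.36 under normexp correction; the cause was not tested, and none passed the threshold. Ighg2c in both groups was -4.23 under the slide block with an adjusted p of 0.20, where the smallest p its 90 arrangements allow cannot pass. Averaging all tested probes of each gene, kappa shifted against lambda by -1.99 in both groups (exact permutation, adjusted p = 0.0364), because this brings in the dim Igkc probe 2. Leaving out each array, Ighg1 shifted by 0.11 to 1.84 (LFA), -0.69 to 1.04 (LNT) and -0.29 to 1.44 (both), Ighg by -0.25 to 1.05 in LNT, BC019489 by -0.72 to 0.70 in LNT and -0.26 to 1.16 in both, and Ighg2c by -4.82 to -3.80 in both. Tests from the authors' table were not run, since it holds group values alone.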
